A study of Homo sapiens with 6 samples.

Results

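The genes that decide whether a cell leaves G1 were followed in HT1080, an established line from a human fibrosarcoma, after vectors carrying siRNA had been introduced. The members are the probe sets whose single gene symbol in the platform annotation is CCND1, CCND3, CCNE1, CCNE2, CDK4, CDKN1A, CDKN1B, CDKN1C, RB1 or E2F1. They came to 18 of the 22283 probe sets of the array, for 10 genes. The filter on dim probe sets, a mean log2 value above the 40th percentile, was passed by 14 of the 18, with at least 1 for each gene. The other 4 all belong to CDKN1C. Arrays fell into 3 groups of 2. Mock cells (titled GUS) carried the pGUS vector with GFP alone, MT1 cells the same vector with GFP and an siRNA against the mRNA of MT1-MMP, and alpha3 cells the same vector with GFP and an siRNA against integrin alpha3. All groups therefore shared vector, GFP and transfection, and no untransfected cells are among the arrays used here. The labels name no cell clone, no time after transfection and no separate cultures for the 2 arrays of a group, so p-values reflect array-to-array spread alone, part or all of which may be technical.

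Cyclins D pair with CDK4 or CDK6 early in G1, and cyclins E pair with CDK2 later. Both kinases phosphorylate the retinoblastoma protein RB, which otherwise holds E2F factors such as E2F1 and keeps the genes of DNA replication silent. The inhibitors p21 (CDKN1A), p27 (CDKN1B) and p57 (CDKN1C) bind cyclin-kinase complexes and brake this step. E2F1 and the E-type cyclins are themselves E2F targets, while p21 is the best known target of p53 and p27 is held down mostly by degradation of the protein.

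The upstream sequences of 3 genes are shown because of what the signals of their genes show. CDKN1B had more signal and CDK4 less on both MT1 arrays than on either mock array, neither past the test, and the probe sets of E2F1 disagree. Each is the 250 bases before the gene's start in the RefSeq promoter table (GRCh38.p14), 5′ to 3′ on the gene's strand, and 7 of the 10 members had an entry, with 9 windows in all. Capitals mark CCAAT in CDKN1B (chr12:12717118-12717367, + strand), the E-box CACGTG in CDK4 (chr12:57752311-57752560, - strand) and E2F words in E2F1 (chr20:33686386-33686635, - strand).
CDKN1B: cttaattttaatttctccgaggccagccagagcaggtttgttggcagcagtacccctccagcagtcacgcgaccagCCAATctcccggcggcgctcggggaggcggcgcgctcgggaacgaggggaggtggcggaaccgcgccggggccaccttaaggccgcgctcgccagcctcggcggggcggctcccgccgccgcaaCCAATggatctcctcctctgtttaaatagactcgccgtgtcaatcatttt
CDK4: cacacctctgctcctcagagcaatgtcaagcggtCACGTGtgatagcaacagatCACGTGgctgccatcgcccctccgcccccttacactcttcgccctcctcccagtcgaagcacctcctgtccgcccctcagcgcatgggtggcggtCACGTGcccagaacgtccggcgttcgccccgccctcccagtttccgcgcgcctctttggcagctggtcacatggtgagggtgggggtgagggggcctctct
E2F1: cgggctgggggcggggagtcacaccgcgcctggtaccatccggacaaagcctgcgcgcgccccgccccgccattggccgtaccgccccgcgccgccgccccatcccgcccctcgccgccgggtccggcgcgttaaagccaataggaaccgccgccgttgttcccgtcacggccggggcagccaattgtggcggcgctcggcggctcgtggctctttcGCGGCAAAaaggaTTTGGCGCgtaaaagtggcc

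CCND3, CCNE1, CDKN1A and RB1 also have windows and did not overlap mock in MT1 cells, but their windows are not shown. A different motif is marked in each of the 3 genes shown, so the marks do not compare them. Windows were searched on both strands, and palindromes were counted once. The E2F words TTTCGCGC, TTTGGCGC, TTTCCCGC and TTTGCCGC were found in the window of E2F1 and in no other member window, against 2.79% of all 35116 windows of this length. CCND1, CCNE2 and CDKN1C had no window, so they were not searched. The RB1 window was 36.8% G and C and held none of the motifs searched. Whether it lies at the main start of RB1 was not examined. E2F1 held 2 of them, at positions -33 to -26 and -20 to -13 before the start, and neither overlapped another motif searched. CDK4 held 3 copies of CACGTG, and 6.34% of all windows contain at least 1. CDKN1B held 2 copies of CCAAT, and 32% of all windows contain at least 1. How many windows hold as many copies was not counted. CCAAT is not particular to CDKN1B, since the E2F1 window held 3 copies, not marked above, and 2 of the CCND3 windows held 1 each. The GC box GGGCGG lay in 7 of the 9 member windows, against 42.6% of all windows. The words TGACGTCA (CRE) and TTTGAA (CHR) were also searched and lay in no member window, against 1.65% and 13.3% of all windows. These matches describe letters in these windows and not binding.

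The arrays had median signals between 72.9 and 83.1 and had been scaled to a common level. MMP14, which encodes MT1-MMP, had signals of 1971 and 3064 in mock cells, 812 and 717 in MT1 cells, and 999 and 1804 in alpha3 cells. Its log2 fold change was -1.65 in MT1 cells (limma adjusted p = 0.139) and -0.86 in alpha3 cells (limma adjusted p = 0.851), so it lay below mock in both siRNA groups. ITGA3, the alpha3 integrin gene, read 1139 and 1290 in mock, 1481 and 1634 in MT1, and 148 and 347 in alpha3 cells. In alpha3 cells its log2 fold change was -2.25 (limma adjusted p = 0.136). All 8 mesenchymal markers examined were above the filter, VIM among them, while of 7 epithelial markers only KRT8 and KRT18 were, and CDH1 and EPCAM were not. In the leukocyte, endothelial and erythroid lists 1 gene each was above the filter. The summed signal of the mesenchymal markers was 23716 and 27758 in mock cells, 47619 and 36824 on the MT1 arrays, and 29879 and 23382 on the alpha3 arrays. That of the epithelial markers was 3016 and 3231 in mock, 2729 and 2324 in MT1, and 4622 and 4189 in alpha3. The sums rest on their brightest genes, so they do not speak for each list as a whole. KRT18 and KRT8 made up nearly all of the epithelial sum, while CDH1 read 28.4 and 29.3 in mock and 9.3 and 4.4 in alpha3 cells. In MT1 cells COL1A2, S100A4 and TGFBI overlapped mock. Probe sets of the spiked hybridisation controls (18) were brighter on the MT1 arrays, at 2.30 and 1.29 times the mock mean, against 0.812 and 0.841 on the alpha3 arrays. These values move with the MT1 and alpha3 groups, and their part in the results that follow was not tested.

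In MT1 cells the signals of the cyclins and CDK4 were lower and that of p27 was higher than in mock cells, with no member past the test. The signals of CCND1, CCND3, CCNE1, CCNE2 and CDK4 were lower on both MT1 arrays than on either mock array, and those of CDKN1A, CDKN1B and RB1 were higher on both, with each gene read by its brightest probe set. In limma, 0 of the 10 genes passed an adjusted p of 0.05, as did 0 of all 8045 genes (0%). The unadjusted p was under 0.05 for 5 of the 10, with CCND3, CCNE2 and CDK4 lower and CDKN1B and RB1 higher, against 14.4% of all genes. That is 3 lower (7.66% of all genes) and 2 higher (6.76%). Arrays did not overlap for 8 of the 10 members (49.9% of all genes), 5 lower (25.3%) and 3 higher (24.6%). A lower signal cannot be split here into fewer cells in a given cycle phase and less RNA per cell.

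**Figure D1:**
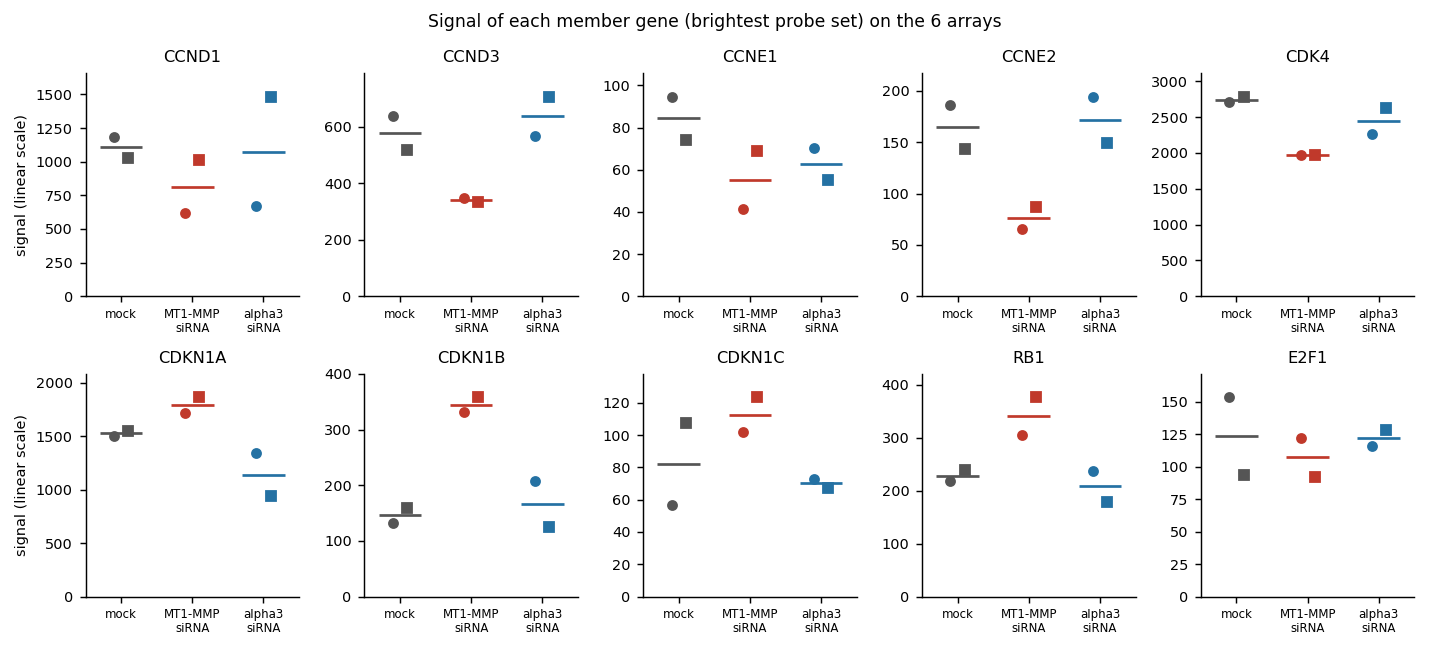
Signal of the brightest probe set of each member gene on a linear scale from 0, by group; each point is 1 array (circle, number 1; square, number 2) and the line is the mean of the 2 arrays. CDKN1B sits at 331 and 358 on the MT1 arrays, above the other 4 arrays, and CCND3 and CDK4 have their lowest signals there.

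Of the D-type cyclins, CCND3 differed more clearly than CCND1. CCND3, cyclin D3, had signals of 640.1 and 518 in mock cells, 347 and 335 in MT1 cells, and 568 and 705 in alpha3 cells. Both MT1 arrays lay below all other arrays, and the mock and alpha3 arrays overlapped. Its log2 fold change in MT1 cells was -0.71 (SE 0.20, limma adjusted p = 0.210). CCND1, cyclin D1, had 1187 and 1028 in mock, 618 and 1009.8 in MT1 cells, and 669.6 and 1480 in alpha3 cells. Both MT1 arrays lay below mock, replicate 2 only just, and the alpha3 arrays lay on either side of all mock arrays. The log2 fold change of CCND1 in MT1 cells was -0.47 (SE 0.36, limma adjusted p = 0.591), and -0.13 without MT1 replicate 1. On the second probe set of CCND1 the signals were 431 and 268 in mock, 236 and 383 in MT1 cells, and 349 and 519.9 in alpha3 cells, so all groups overlapped there.

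Both E-type cyclins had their lowest mean signal in MT1 cells. CCNE2, cyclin E2, had 187 and 143 in mock cells, 65.4 and 86.7 in MT1 cells, and 194 and 149 in alpha3 cells. The MT1 mean of 76.1 ± 15.1 (SD, n = 2) was 0.461 times the mock mean of 165 ± 30.6 (SD, n = 2), or a log2 difference of -0.86 (SE 0.23, limma adjusted p = 0.197). The second CCNE2 probe set showed the same order, with 142 and 93.4 in mock, 33.5 and 71.8 in MT1 cells, and 99.1 and 141 in alpha3 cells, and a log2 fold change of -0.84. Mock and alpha3 arrays overlapped on both. CCNE1, cyclin E1, was dimmer, at 94.4 and 74.3 in mock, 41.2 and 68.8 in MT1 cells, and 70.5 and 55.3 in alpha3 cells. Its 2 siRNA groups overlapped each other and both lay below mock, and the log2 fold change in MT1 cells was -0.43 (SE 0.26, limma adjusted p = 0.480). It was -0.20 without MT1 replicate 1 and -0.66 without replicate 2.

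CDK4, the kinase partner of the D cyclins, had 2707 and 2778 in mock cells, 1974 and 1973 in MT1 cells, and 2268 and 2623 in alpha3 cells. The order was mock, then alpha3, then MT1, without overlap between neighbours. The log2 fold change in MT1 cells was -0.47 (SE 0.16, limma adjusted p = 0.264), and it stayed between -0.49 and -0.45 when any 1 array was left out.

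Among the inhibitors, p27 showed the largest difference of the 10 genes. CDKN1B had signals of 132 and 160 in mock cells, 331 and 358 in MT1 cells, and 208 and 125 in alpha3 cells. The MT1 arrays lay above all other arrays, and the alpha3 arrays enclosed the mock arrays. The MT1 mean of 345 ± 18.8 (SD, n = 2) was 2.36 times the mock mean of 146 ± 19.7 (SD, n = 2). Its log2 difference of 1.08 (SE 0.25, 95% interval 0.52 to 1.64) ranked 93 of 8045 genes by p and had a limma adjusted p of 0.164. Under every other setting tried, leaving out any 1 array included, the log2 fold change was between 0.85 and 1.24.

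CDKN1A, the p53-responsive inhibitor p21, had 1500 and 1553 in mock, 1719.6 and 1864 in MT1 cells, and 1343 and 937 in alpha3 cells. Its 3 groups did not overlap, in the order MT1, mock, alpha3. The log2 fold change was 0.23 (SE 0.21, limma adjusted p = 0.654) in MT1 cells and -0.43 (SE 0.21, limma adjusted p = 0.855) in alpha3 cells. The latter ran from -0.69 without alpha3 replicate 1 to -0.18 without replicate 2. CDKN1C, p57, was read by 1 usable probe set, with 56.5 and 107 in mock, 102 and 123 in MT1 cells, and 72.9 and 67.4 in alpha3 cells. Mock overlapped both siRNA groups, and the log2 fold change in MT1 cells was 0.38 (SE 0.27, limma adjusted p = 0.558). Leaving out mock replicate 1 gave 0.048, and leaving out mock replicate 2 gave 0.70. The other 4 probe sets of CDKN1C ranged from 1.8 to 12.8 over all arrays, so they lay at the low end of the array.

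RB1 lay above mock in MT1 cells on 1 of its 2 probe sets and below it on the other. On the brighter one it had 218 and 239 in mock, 305 and 377 in MT1 cells, and 237 and 179 in alpha3 cells, a log2 fold change in MT1 cells of 0.51 (SE 0.21, limma adjusted p = 0.325). On the other it had 115 and 125 in mock, 95.4 and 112 in MT1 cells, and 98.4 and 90.6 in alpha3 cells, and a log2 fold change of -0.17. Over the 6 arrays the 2 probe sets correlated at r = 0.223, a description of 6 arrays only. With the mean of the probe sets, the log2 fold change of RB1 was 0.17.

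E2F1 also depended on the probe set, and there the difference lay with the other siRNA. On the brighter probe set E2F1 had 153 and 93.4 in mock, 122 and 91.9 in MT1 cells, and 116 and 128 in alpha3 cells, and all groups overlapped. Its log2 fold change in MT1 cells was -0.14 (SE 0.25, 95% interval -0.72 to 0.44, limma adjusted p = 0.837), turning to 0.14 without mock replicate 1. On the second probe set the signals were 53.1 and 38 in mock, 32.3 and 53.7 in MT1 cells, and 127 and 123 in alpha3 cells. There both alpha3 arrays lay above the other 4, at a mean of 125 ± 2.76 (SD, n = 2) against 45.6 ± 10.7 (SD, n = 2) in mock and 43.0 ± 15.1 (SD, n = 2) in MT1 cells. The mock and MT1 means are under the signal of 47.5 that the filter corresponds to, so this probe set passed through its alpha3 arrays, and no test of it is given. The 2 probe sets of E2F1 correlated at r = 0.226 over the 6 arrays, against 0.870 for CCNE2 and 0.765 for CCND1.

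**Figure D2:**
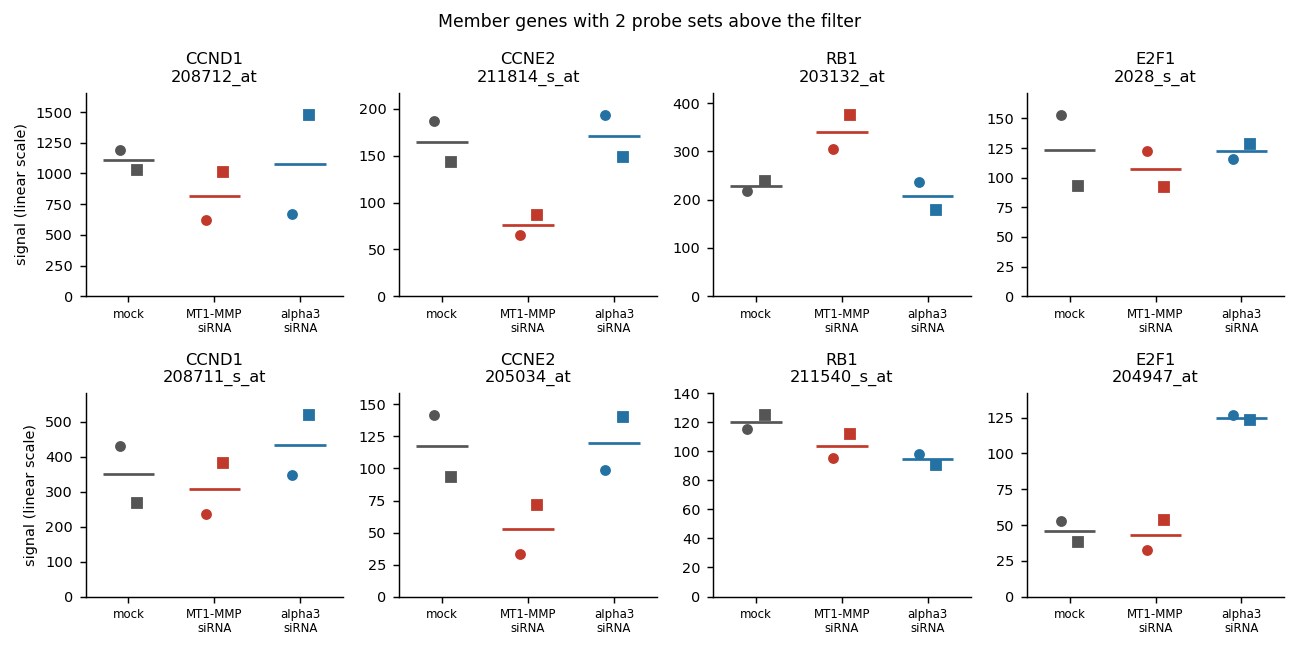
Signals of the 4 member genes with 2 probe sets above the filter, on linear scales from 0; each column is a gene, each row a probe set, each point an array (circle, number 1; square, number 2) and each line a group mean. The CCNE2 probe sets show the same order of groups, while on the lower E2F1 panel the alpha3 arrays stand at 127 and 123 and on the upper one they lie within the mock range.

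In alpha3 cells against mock, with each gene read by its brightest probe set, CDKN1A lay farthest from 0, on the lower side. In limma 0 of the 10 passed an adjusted p of 0.05, against 2 of 8045 genes (0.0249%), and 0 of the 10 had an unadjusted p under 0.05, against 5.73% of all genes (3.22% lower and 2.51% higher). Arrays did not overlap for 3 members (34.4% of all genes), CCNE1, CDK4 and CDKN1A, which were all lower (18.0%), and for 0 on the higher side (16.4%). Of the 10, 6 were below 0, as were 52.0% of all genes. The log2 fold changes were -0.43 for CDKN1A, -0.29 for CCNE1, -0.17 for CDK4, -0.14 for CCND1, -0.13 for RB1, -0.12 for CDKN1C, 0.016 for E2F1, 0.047 for CCNE2, and 0.13 for CCND3 and CDKN1B. With the mean of its probe sets E2F1 stood at 0.52. This value includes the dim probe set described above, which passed the filter through its alpha3 arrays, so no test of it is given. The 95% intervals all included 0, from the widest, -0.98 to 0.69 for CCND1, to the narrowest, -0.54 to 0.20 for CDK4. This comparison and that of MT1 with mock share the mock arrays.

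Set directly against each other, MT1 cells had less CCND3 and CCNE2 signal and more CDKN1A, CDKN1B and RB1 (brightest probe set) signal than alpha3 cells. In limma 0 of the 10 members passed an adjusted p of 0.05, while 1.39% of all genes did (0.820% higher and 0.572% lower in MT1 cells). With each gene read by its brightest probe set, the lowest adjusted p in limma was 0.0725, for CCND3, at a log2 difference of -0.84 (SE 0.20). CCNE2 had -0.91 (limma adjusted p = 0.0774), CDKN1B 0.96 (limma adjusted p = 0.0777), CDKN1A 0.66 (limma adjusted p = 0.114) and RB1 0.64 (limma adjusted p = 0.129). These 5 were the members at an unadjusted p under 0.05, against 23.4% of all genes, 2 lower and 3 higher against 11.7% each. For CDKN1A, at 1719.6 and 1864 in MT1 and 1343 and 937 in alpha3, the difference between the siRNA groups combines a higher MT1 mean and a lower alpha3 mean, since the mock arrays lie between them. E2F1 had -0.16 on its brightest probe set and -0.62 with the mean of its probe sets. That mean includes the dim probe set that passed the filter through its alpha3 arrays, so it supports no direction. Without alpha3 replicate 2, CDKN1A had 0.41 and CDKN1B 0.65. Arrays did not overlap for 7 of the 10 (53.9% of all genes). These were CCND3, CCNE2 and CDK4 on the lower side (25.9%) and CDKN1A, CDKN1B, CDKN1C and RB1 on the higher (28.0%).

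**Figure D3:**
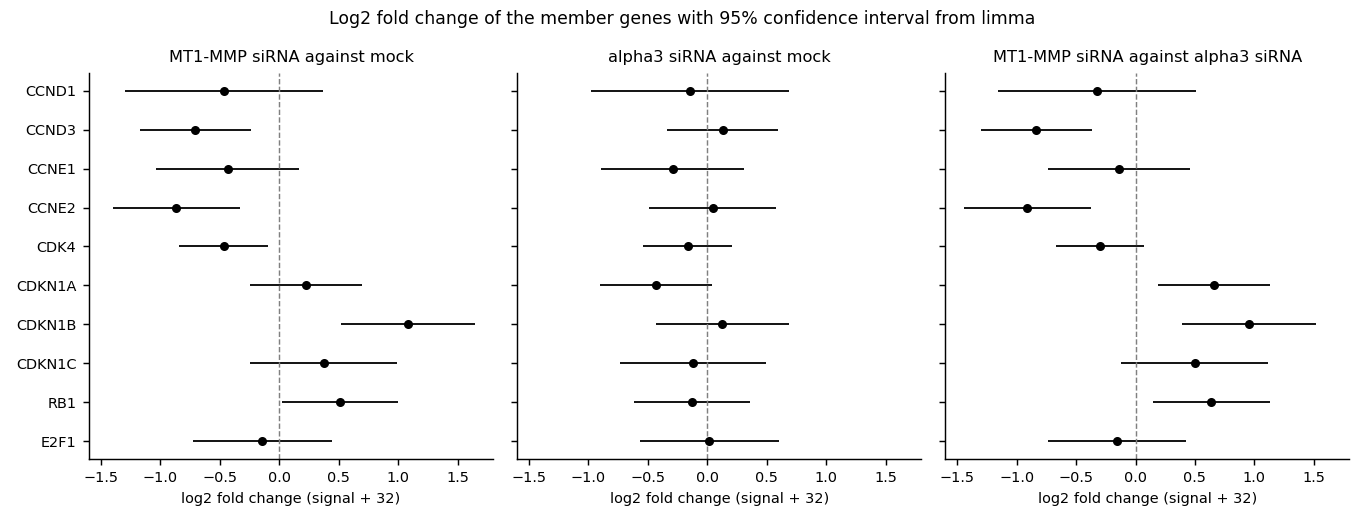
Log2 fold change of each member gene (point) with its 95% confidence interval from limma (line) in the 3 comparisons, on the log2(signal + 32) scale. In MT1 cells against mock the intervals of CCND3, CCNE2 and CDK4 lie below 0 and those of CDKN1B and RB1 above, while in alpha3 cells all 10 include 0.

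Other genes of G1 control were taken from a list of 30, of which 22 were tested. In MT1 cells 13 of the 22 were below 0, against 49.7% of all genes, with a median log2 fold change of -0.13 against 0.0024 over all genes. At an unadjusted p under 0.05, 3 were lower and 2 higher, against 7.66% and 6.76% of all genes, and 0 were called. Without MT1 replicate 1 the median was -0.033, and those 5 became 2, and 3 without mock replicate 1. With cyclic loess normalization the median was -0.057. CCNA2, cyclin A2, which drives S phase, had 1679 and 1102 in mock, 483 and 725 in MT1 cells, and 1147 and 1593 in alpha3 cells (log2 fold change -1.16, SE 0.28, limma adjusted p = 0.176). SKP2, the F-box protein that marks p27 for degradation, had a log2 fold change of -0.87 (limma adjusted p = 0.220), with signals of 666 and 664 in mock, 297 and 408 in MT1 cells, and 422 and 713 in alpha3 cells. SKP2 is outside the rule for named genes and was chosen after its values were seen. It acts on the p27 protein, which was not measured, while the CDKN1B signal is mRNA. A link between the 2 genes was not tested. On the same list SKP1 went the other way, at 0.41 (limma adjusted p = 0.290). RBX1 also lay above 0, at 0.19, while CUL1 (-0.17) and CKS1B (-0.27) lay below. RBL2, the RB relative p130 that acts with E2F4 in resting cells, had 112 and 123 in mock, 242 and 227 in MT1 cells, and 85.1 and 81.1 in alpha3 cells. Its log2 fold change was 0.84 (SE 0.20, limma adjusted p = 0.165) against mock, and against alpha3 cells RBL2 was called higher at 1.21 (SE 0.20, limma adjusted p = 0.0329). RBL2 was the one gene of this list called in that comparison, and it lost the call when any 1 array was left out, with the mean of the probe sets, with no filter and with only the 2 groups compared. Between the siRNA groups 0.820% of all genes were called higher, and 17 of the 22 were below 0, against 48.1% of all genes. At an unadjusted p under 0.05, 6 were lower and 1 higher, against 11.7% of all genes each way. Those 7 became 3 without MT1 replicate 1 or alpha3 replicate 2, and CCND2, 1 of the 6, passed the filter through its alpha3 arrays.

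CDC25A, the phosphatase that activates CDK2, had 76 and 89.2 in mock, 42 and 56.4 in MT1 cells, and 113 and 158 in alpha3 cells (log2 fold change between the siRNA groups -1.04, limma adjusted p = 0.0674). In alpha3 cells against mock the median of the 22 was 0.063, against -0.014 over all genes, and 9 were below 0, against 52.0% of all genes. At an unadjusted p under 0.05, 1 gene was higher, against 2.51% of all genes. It was cyclin D2 (CCND2), which is named for that count, after its values were seen. CCND2 had 29.5 and 32.9 in mock, 27.6 and 43 in MT1 cells, and 51.3 and 160 in alpha3 cells. Its mock and MT1 signals are all under the filter signal of 47.5, so it was tested because of the alpha3 arrays, mainly replicate 2, and its count supports no direction. The INK4 inhibitor CDKN2A was below the filter, with its 3 probe sets between 5.6 and 66.4 on all arrays, and so was CDKN2B, between 1.6 and 9.3.

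The E2F target genes lay below mock in MT1 cells, where the signals of E2F1 itself overlapped mock. Of 27 listed targets 24 were tested, and all 24 were below 0, against 49.7% of all genes, with a median log2 fold change of -0.81. The unadjusted p was under 0.05 for 20, all lower, against 7.66% of all genes lower, and 0 were called in limma. Without mock replicate 1 there were 23 below 0 and 12 at an unadjusted p under 0.05. The list was chosen with earlier results of these data known, so its direction is not independent evidence, and CCNA2 is on this list too. CDC45, part of the replicative helicase, had 260 and 145 in mock, 16.6 and 21.7 in MT1 cells, and 213 and 201 in alpha3 cells (log2 fold change -2.15, limma adjusted p = 0.0537). Both MT1 signals of CDC45 are under the filter signal of 47.5, and the added 32 damps differences at that level, so this value is no exact fold. CDC6, which loads that helicase, had 381 and 260.3 in mock, 125 and 124 in MT1 cells, and 493 and 445 in alpha3 cells (log2 fold change -1.16, limma adjusted p = 0.139). In the direct comparison of the siRNA groups all 24 were below 0, as were 48.1% of all genes. Of the 24, 7 were called lower in MT1 cells, against 0.572% of all genes. The 7 were MCM2, MCM7, CDC6, CDC45, POLA1, RRM2 and MYBL2. Of these 7 calls, 0 held without either MT1 array or without alpha3 replicate 2, and 1 gene of the list was called without alpha3 replicate 1. With no filter on dim genes 2 of the list were called. In alpha3 cells against mock the median was 0.067, with 17 of 24 above 0, 2 higher at an unadjusted p under 0.05 (MCM7 and CDC6), which became 0 without alpha3 replicate 1 or mock replicate 2 and 4 without mock replicate 1, and 0 called.

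Genes of later cycle phases lay with the E2F targets. All 16 of the proliferation list were below 0 in MT1 cells, against 49.7% of all genes, with a median of -0.65. The unadjusted p was under 0.05 for 10, against 7.66% of all genes lower, and 0 were called. Without MT1 replicate 1 there were 14 below 0. FOXM1, the factor of mitotic genes, was lower by a log2 fold change of -1.73 (limma adjusted p = 0.134). Between the siRNA groups all 16 were below 0 too, and FOXM1 alone was called (-1.73, limma adjusted p = 0.0355), but not without any 1 of the MT1 or alpha3 arrays, without the variance trend or with no filter. Over all genes 0.572% were called lower between the siRNA groups. In alpha3 cells against mock the median was 0.0090, against -0.014 over all genes. There 10 of 16 were above 0 and 6 below, against 52.0% of all genes below. At an unadjusted p under 0.05 there were 0, against 5.73% of all genes. In the p53 list, set beside CDKN1A, 6 of 16 genes were below 0 in MT1 cells, against 49.7% of all genes, with a median of 0.094. At an unadjusted p under 0.05, 4 were higher, against 6.76% of all genes, and 0 were called. Those 4 became 1 without mock replicate 2 or MT1 replicate 1, and 2 without mock replicate 1. CCNG1, cyclin G1, had 1820.3 and 1795 in mock, 4229 and 3146 in MT1 cells, and 1605 and 1158 in alpha3 cells (log2 fold change 1.00, SE 0.22, limma adjusted p = 0.164). Against alpha3 cells CCNG1 was called higher in MT1 (1.40, limma adjusted p = 0.0303), but not without either MT1 array, alpha3 replicate 2 or mock replicate 1, nor with no filter. Over all genes 0.820% were called higher in that comparison. Of the 16 p53 genes 5 were below 0 there, against 48.1% of all genes. At an unadjusted p under 0.05, 2 were lower and 4 higher, against 11.7% of all genes each way. GADD45A, a stress protein, was lower, at -0.61 (limma adjusted p = 0.0969). In alpha3 cells against mock the growth factor GDF15 had a log2 fold change of -1.45 (limma adjusted p = 0.834) and GADD45A of 0.58 (limma adjusted p = 0.847), on opposite sides of 0, beside -0.43 for CDKN1A.

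**Figure D4:**
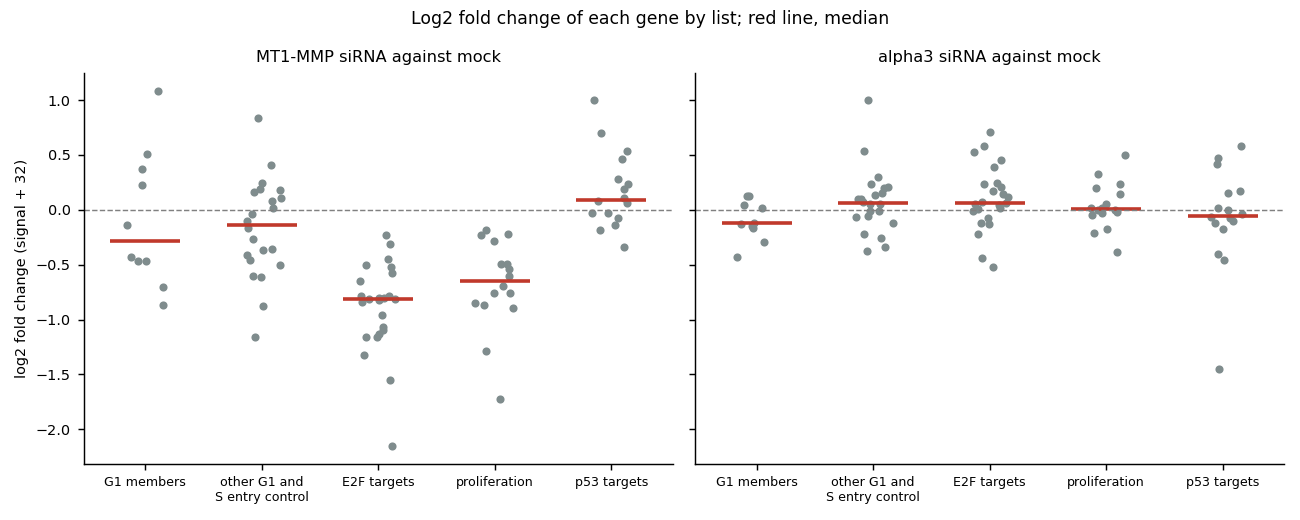
Log2 fold change of each tested gene (grey point) of the 10 G1 members and 4 lists in MT1 cells and in alpha3 cells, each against the same mock arrays; the red line is the list's median. In MT1 cells the 24 E2F targets and 16 proliferation genes all lie below 0 and the G1 members spread to both sides, and in alpha3 cells the medians of all 5 lie between -0.12 and 0.067.

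Across the 6 arrays, the genes whose log2 values followed a member most closely were taken for E2F1, CDKN1A and CCND1, as a description over 6 arrays and 8045 genes. The brighter E2F1 probe set was followed by ATP6V1E1 (r = 0.981), TIMM10B (0.969), C2CD2L (0.968), CLIC1 (0.967) and MAPK13 (0.958), which like E2F1 were highest on mock replicate 1 and low on mock replicate 2 and MT1 replicate 2. CDKN1A was followed by SPRR1A (r = 0.991), PPME1 (0.991), XYLT2 (0.991), KDM4B (0.989) and COL4A5 (0.983). These share the order of MT1 highest and alpha3 replicate 2 lowest. XYLT2, for example, had 116 and 128 in mock, 155 and 165 in MT1 cells, and 106 and 67.7 in alpha3 cells. CCND1 was followed by SHMT2 (r = 0.993), NUP153 (0.992), ARMC8 (0.984), TMCC1 (0.983) and HRH1 (0.981), which follow the gap between the 2 arrays within each siRNA group. SHMT2, a mitochondrial serine enzyme, had 1772 and 1627 in mock, 1209 and 1611 in MT1 cells, and 1291 and 1887 in alpha3 cells. At r above 0.9 lay 115 genes for CCND1, 132 for CDKN1A and 21 for E2F1.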

How the data were processed

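Total RNA of HT1080 cells was measured on 6 single-channel arrays of 22283 probe sets, 2 per group. The authors deposited 1 linear intensity per probe set and array, with a mean over the middle 96% of probe sets that was equal between arrays, from the values. The sources used here name neither software nor genome build. After a floor of 1, values were analysed as log2(value + 32), which damps changes of dim genes. Singly named probe sets above the 40th percentile of mean log2 value (6.31, signal 47.5) were kept, and the brightest probe set stood for a gene, which left 8045 genes. limma 3.58.1 in R 4.3.3 (lmFit, eBayes with trend) fitted 3 group means to all 6 arrays, with 3 residual and 5.35 prior degrees of freedom and Benjamini-Hochberg adjustment over all genes. Single probe sets come from the same fit on 11828 probe sets. Every limma p is two-sided, and 2 against 2 arrays cannot give an exact permutation p below 0.333. The fit was also run on simulated arrays as a check of the code, which says nothing about its power for the members. Figures were drawn with matplotlib 3.10.9.

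Members, gene lists and the naming rule were all chosen with earlier results of these data known. The rule takes every member, up to 5 genes per list and comparison whose unadjusted p is below 0.01 and whose groups do not overlap, by size, and the 5 genes that correlate best with E2F1, CDKN1A and CCND1. Not all genes the rule takes are printed. Promoter windows come from RefSeq GRCh38.p14. Alternatives were quantile, cyclic loess and 75th percentile normalization, offsets of 1 and 100, no filter or the 60th percentile, the mean of the probe sets or each singly, no trend, only the 2 groups compared, a replicate block, and leaving out each array.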

Additional observations from a re-analysis of the deposited data

How the results depend on the processing

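Across the 3 comparisons, 531 log2 fold changes of members were recomputed under alternatives. Of these 514 kept the sign and 0 passed an adjusted p of 0.05. Settings that change only the spread, the filter or an array outside the comparison leave a log2 fold change as it was. Those signs could not turn, so the share that kept its sign does not measure robustness. With each probe set singly, the brightest was read for this count, so second probe sets enter it only through the mean. CCND1 turned from -0.14 to 0.078 with alpha3 siRNA when its probe sets were averaged. Leaving out 1 array turned others. With alpha3 siRNA against mock the ranges were -0.70 to 0.41 for CCND1, -0.019 to 0.28 for CCND3, -0.11 to 0.21 for CCNE2, -0.18 to 0.44 for CDKN1B, -0.45 to 0.21 for CDKN1C, -0.27 to 0.30 for E2F1 and -0.30 to 0.049 for RB1. Between the siRNA groups they were -0.88 to 0.23 for CCND1, -0.37 to 0.092 for CCNE1 and -0.32 to 0.00019 for E2F1, and with MT1-MMP siRNA against mock -0.42 to 0.14 for E2F1. The cause was not tested.

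Called genes in limma, over all genes, were 0 for MT1-MMP siRNA against mock (1160 at an unadjusted p under 0.05), 2 for alpha3 siRNA against mock and 112 between the siRNA groups. The first count was 1 with quantile normalization, 2 with each probe set singly or their mean, 3 with an offset of 1, 6 with an offset of 100 and 7 with only the 2 groups compared. The second was 1 with quantile or cyclic loess normalization, each probe set singly, no filter, an offset of 100 or only the 2 groups compared, and 0 with an offset of 1 or the 60th percentile filter. The third was 22 with no filter, 69 with an offset of 1, 72 without the trend and 178 with the 60th percentile filter. Leaving out 1 array, with the lone array assumed to vary like the other groups, gave 0 to 8, 0 to 9 and 0 to 83. The third count was 0 without either MT1 array, 6 without alpha3 replicate 2, 60 without alpha3 replicate 1 and 73 without mock replicate 1. The first was 8 without either alpha3 array, and the second 9 without alpha3 replicate 2 and 0 without either mock array. Members without overlap with alpha3 siRNA went from 3 to 5 with the mean of the probe sets, and the share over all genes was not computed there. Without 1 array this count is not comparable, because 1 array against 2 overlaps less readily than 2 against 2. CCNE1, CDKN1C and E2F1 are dimmer than the 60th percentile and have no value there.

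Nothing in the labels says that arrays with the same number were paired. Deviations of same-numbered arrays from their group means correlated across genes at -0.176 (mock and MT1), -0.175 (mock and alpha3) and 0.127 (MT1 and alpha3). With the replicate number as a block the counts were 11, 4 and 114, and with the mock numbers crossed, chosen after seeing the data, 51, 7 and 599. The block called 0 members in any comparison. The number of arrays and the low signals of CCNE1, CDKN1C and E2F1 limit the precision.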
